A study of Mus musculus with 24 samples.

Results

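The genes described here are the 4 Cyp3a genes detected at 1 FPKM or more in mouse liver (Cyp3a11, Cyp3a13, Cyp3a25 and Cyp3a59), Nr1i2, which encodes the nuclear receptor PXR, Por, which encodes NADPH-cytochrome P450 reductase, and Alas1, which encodes the rate-limiting enzyme of liver heme synthesis. They were taken by symbol from the deposited gene tables, where all 7 had a row in each of the 24 libraries, out of 17537 genes listed in at least 1 library. Livers came from male C57BL/6 mice of 20 to 30 g. The groups were di(2-ethylhexyl) phthalate (DEHP) at 2500 mg/kg together with ethanol at 1 g/kg (called the combination below), DEHP alone at 2500 mg/kg, ethanol alone at 1 g/kg, and the vehicle, 0.5% CMC, all by gavage and with 6 libraries each. CMC appears in the title of vehicle samples and of no others; if the other mice did not receive it, treatment and carrier cannot be told apart. The labels describe 12 mice per group for these 6 libraries and state neither the length of treatment nor the hour of collection, nor whether a library is 1 animal, so a p-value here reflects how these libraries scatter, which may be technical.

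CYP3A enzymes are membrane-bound monooxygenases of the endoplasmic reticulum that oxidise many drugs, steroids and bile acids. Each needs a heme group, which depends on ALAS1, and electrons, which P450 reductase passes on from NADPH. PXR senses foreign compounds and bile acids and, bound to DNA with its partner RXR, switches on Cyp3a genes; Cyp3a11 is its usual marker in mouse liver. DEHP is a plasticiser best known in rodent liver as a peroxisome proliferator, which acts through another nuclear receptor, PPARalpha.

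The genes lie on 3 chromosomes (GRCm38.p6 coordinates from RefSeq). On chromosome 5, minus strand, Cyp3a11 (gene 13112) spans 145854607 to 145879854 and Cyp3a25 (gene 56388) spans 145977192 to 146009644. Cyp3a59 (gene 100041449) follows 69.6 kb further on, from 146079208 to 146114978, on the plus strand, so that it and Cyp3a25 point away from each other's start across that gap. Cyp3a13 (gene 13113, 137892933 to 137925610, minus strand) lies 7929.0 kb from Cyp3a11, and Por (gene 18984, 135670040 to 135735326, plus strand) is on the same chromosome. Nr1i2 (gene 18171) is on chromosome 16, 38248349 to 38294849, minus strand, and Alas1 (gene 11655) on chromosome 9, 106233455 to 106247954, minus strand.

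Cyp3a25 and Cyp3a59 are near copies whose levels behaved differently, so their upstream sequences are shown beside that of Cyp3a11. Each window runs from 250 to 51 bases before a transcript start of RefSeq's promoter table (GRCm38.p6), 5′ to 3′ on the gene's own strand, and the capitals mark AGGTCA or its reverse complement TGACCT, the half-site that PXR and many other nuclear receptors can bind. For Cyp3a25 and Cyp3a59 that transcript start lies inside the gene span given above and not at its end.
Cyp3a11, chr5:145879905-145880104, minus strand: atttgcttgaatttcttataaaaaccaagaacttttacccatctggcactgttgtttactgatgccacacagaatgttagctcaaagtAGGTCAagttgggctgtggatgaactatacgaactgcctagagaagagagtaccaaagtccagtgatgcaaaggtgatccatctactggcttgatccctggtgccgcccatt
Cyp3a25, chr5:146009669-146009868, minus strand: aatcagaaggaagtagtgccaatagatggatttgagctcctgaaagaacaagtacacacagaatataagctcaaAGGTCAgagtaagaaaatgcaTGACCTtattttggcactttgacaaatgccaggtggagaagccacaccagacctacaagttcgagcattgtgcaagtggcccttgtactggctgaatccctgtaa
Cyp3a59, chr5:146079008-146079207, plus strand: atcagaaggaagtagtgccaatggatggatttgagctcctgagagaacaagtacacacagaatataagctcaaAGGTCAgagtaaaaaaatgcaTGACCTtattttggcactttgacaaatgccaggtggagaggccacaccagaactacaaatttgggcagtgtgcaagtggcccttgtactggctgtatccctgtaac

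The Cyp3a25 and Cyp3a59 windows were identical at 189 of 201 aligned positions (94.0%) and carried the same pair of half-sites, whereas that of Cyp3a11 was 49.6% and 51.8% identical to them. AGGTCA, searched on both strands, was in 3 of the 7 genes' windows and in 11.4% of the 32851 RefSeq windows of this length. Its variant AGTTCA was in the window of Cyp3a11 alone among the 7 genes and in 9.98% of all windows. The E-box CACGTG, which clock activators can bind, was in none of the 7 and in 4.34% of all. These matches describe the letters in the windows and say nothing of what binds there.

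The coding sequences of Cyp3a25 and Cyp3a59, both 1512 bases long (GENCODE M21), were 97.5% identical and differed at 38 positions. The stretch with the most differences, 8 in 120 coding bases, is shown because reads over such positions can tell these genes apart; capitals mark the bases that differ, and positions count from the A of the start codon.
Cyp3a25, coding bases 221 to 340: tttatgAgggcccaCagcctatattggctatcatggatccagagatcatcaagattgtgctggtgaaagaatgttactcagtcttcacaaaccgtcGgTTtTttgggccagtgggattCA
Cyp3a59, coding bases 221 to 340: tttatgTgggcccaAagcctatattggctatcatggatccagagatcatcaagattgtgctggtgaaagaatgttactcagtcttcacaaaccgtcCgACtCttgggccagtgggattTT
The longest run without a difference was 162 coding bases. Of all stretches of 50 bases in the Cyp3a59 transcript, 24.7% also occurred in that of Cyp3a25. A read of 50 bases from such a shared stretch cannot be assigned to either gene by sequence. How the authors' counting split shared reads is not given in the sources used here. Cyp3a13 shared no such stretch with any other Cyp3a gene examined. Cyp3a11 shared none with the other 3 detected genes and 14.7% with Cyp3a genes that were nearly silent here.

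Cyp3a11 made up most of the Cyp3a RNA in each group. On the FPKM scale (fragments scaled for transcript length and library depth, so that genes can be compared), its share of the summed Cyp3a level averaged 88.0% ± 0.77 in the combination, 87.4% ± 1.39 with DEHP, 88.4% ± 0.91 with ethanol and 86.4% ± 1.33 with vehicle (SD, n = 6 each). Cyp3a25 held 8.37% to 10.3%, Cyp3a13 1.81% to 3.003% and Cyp3a59 0.76% to 1.00% of it, as group means. Of the 5 other Cyp3a genes looked for, Cyp3a41a, a gene known for female-predominant expression, had 114 estimated reads over all 24 libraries, Cyp3a44 and Cyp3a57 had 3 each, and Cyp3a16 and Cyp3a41b had no row. The upstream window of Cyp3a57 was nevertheless 87.1% identical to that of Cyp3a25.

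**Figure D1:**
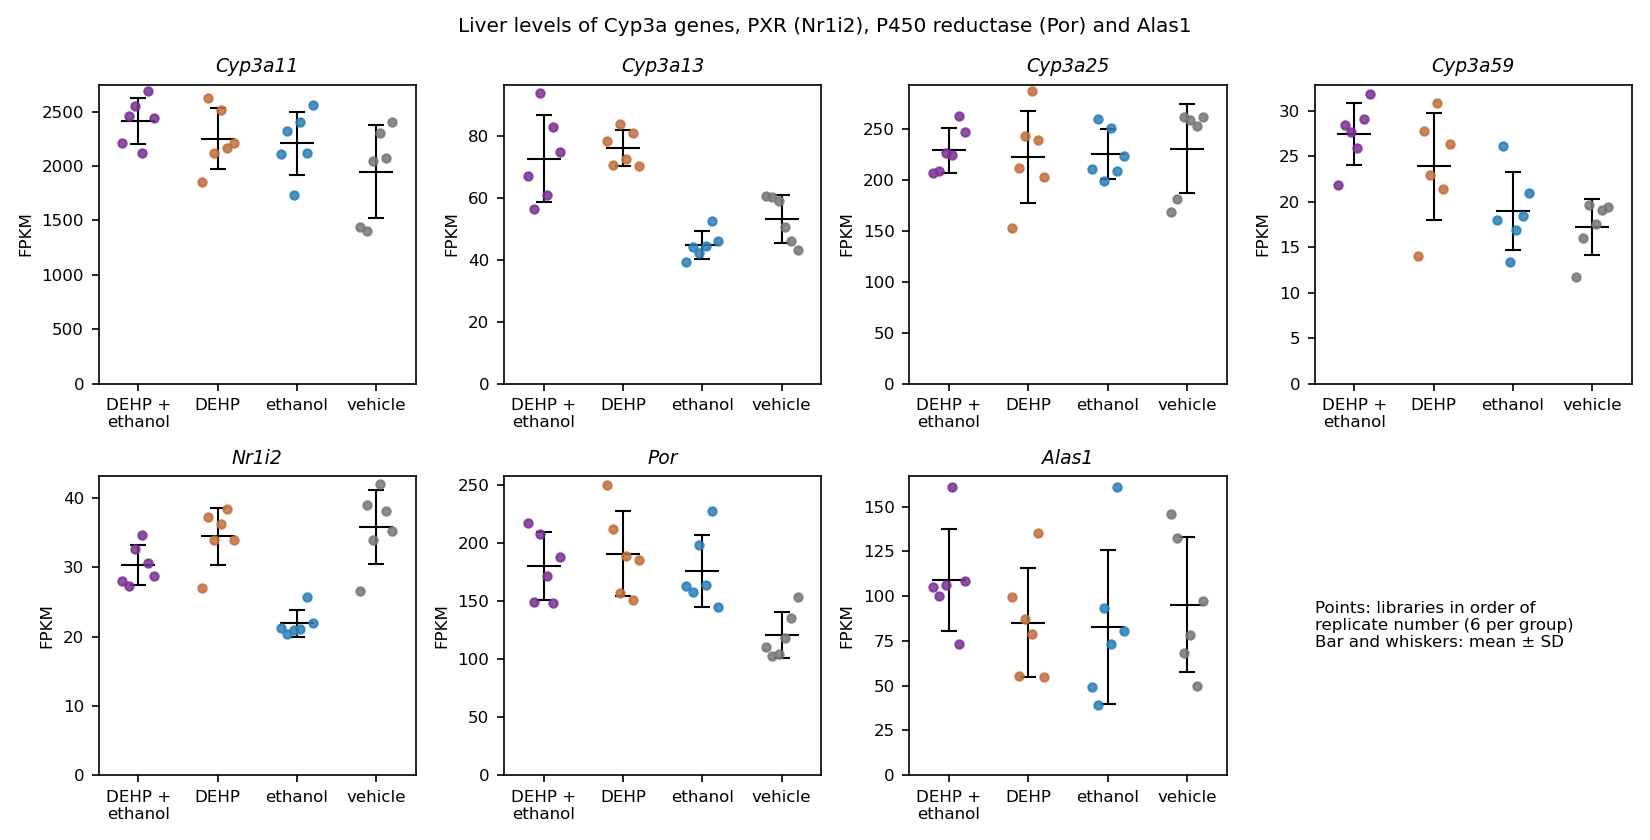
FPKM of each gene in each of the 24 libraries (points), by group, with the group's mean and SD (bar and whiskers, n = 6). The 6 ethanol libraries lie below all 6 vehicle libraries for Nr1i2, the 6 DEHP libraries lie above all 6 vehicle libraries for Cyp3a13, and the groups of Alas1 overlap throughout.

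A few facts of the whole series bear on these values. Total expected counts were 7324793 to 8016662 per library, and 10697 genes that reached 1 FPKM in at least 6 libraries were tested, all 7 genes here among them. Their counts ranged from 165 reads for Cyp3a59 to 40737 for Cyp3a11. A call below means an adjusted p below 0.05 in edgeR's quasi-likelihood test, with Benjamini-Hochberg adjustment across those 10697 genes. In 3 libraries transcripts of another tissue stood out. The summed FPKM of 7 skeletal muscle markers was 4639 in combination replicate 6 and 6232 in vehicle replicate 1, against a highest median of 3.51 over the groups, and 7 pancreatic markers summed to 547.1 in DEHP replicate 6. The marker counts that follow are against vehicle, where 17.4% of all genes fell in the combination, 11.6% with DEHP and 14.5% with ethanol. Of the 7 hepatocyte markers, Alb among them, 5 fell in the combination and 5 with DEHP, while 2 rose and 2 fell with ethanol. Their summed FPKM had a median of 42564 in the combination, 43822 with DEHP, 59669 with ethanol and 62916 with vehicle. The summed FPKM of 5 adipocyte markers had a median of 38.5 in the combination, 52.0 with DEHP, 6.03 with ethanol and 11.2 with vehicle. Fabp4 weighs most in that sum. Over the 24 libraries its median was 11.7 FPKM, that of Cfd was 0.79, and the other 3 markers had a median of 0. Of 7 endothelial markers, 4 fell with ethanol, 2 with DEHP and 2 in the combination against vehicle. Of 4 cholangiocyte markers, 2 fell with ethanol, 1 with DEHP and 1 in the combination. Of 6 stellate cell markers, 2 fell with ethanol, 2 with DEHP and none in the combination. Des, among these 6, reached 119.2 FPKM in vehicle replicate 1, which held muscle transcripts, and 100.8 FPKM in the next highest library. Its median over the 24 libraries was 1.495 FPKM. The part of these differences in the results below was not tested, beyond leaving out the 3 libraries. In whole liver, fewer cells of a type and less RNA per cell cannot be told apart.

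Nr1i2, the gene for PXR, was lower after ethanol alone. Its lowest, median and highest values were 20.3, 21.2 and 25.8 FPKM in the ethanol libraries, against 26.5, 36.7 and 42.1 FPKM in the vehicle libraries. Every ethanol library was thus below every vehicle library. It fell by 0.64 ± 0.10 on the log2 scale (SE; adjusted p = 8.4e-05), a fold change of 0.640, and the call held at every alternative setting and with each library left out in turn. With DEHP alone Nr1i2 had 27.0, 35.1 and 38.5 FPKM, which overlapped the vehicle libraries (-0.08 ± 0.10, 95% interval -0.29 to 0.14). In the combination it had 27.3, 29.7 and 34.6 FPKM, between these groups.

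The DEHP-treated groups both lay above ethanol alone for Nr1i2. The combination was 0.40 ± 0.10 higher than ethanol (adjusted p = 0.00481) and DEHP 0.57 ± 0.10 higher than ethanol (adjusted p = 0.000171), in each case with no overlap of the 6 libraries. Against vehicle, the combination differed by -0.25 ± 0.10 (95% interval -0.46 to -0.04) and was not called, with an adjusted p of 0.0574; it was called at 5 of the alternative settings, among them the one without the 3 libraries that held muscle or pancreas transcripts (-0.33, adjusted p = 0.011). Whether ethanol added to DEHP did what ethanol did alone was tested as an interaction: the log2 difference between combination and DEHP minus that between ethanol and vehicle was 0.47 ± 0.14 (adjusted p = 0.0486). That call was lost in 20 of the 24 fits that leave out 1 library, with log2 values from 0.42 to 0.55 and adjusted p-values up to 0.0816.

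Por, the electron donor of all microsomal P450 enzymes, was higher in all 3 treated groups than with vehicle. The lowest, median and highest values were 148.1, 179.6 and 216.9 FPKM in the combination, 150.5, 187.1 and 250.2 FPKM with DEHP, 144.5, 163.1 and 227.6 FPKM with ethanol, and 102.7, 114.2 and 153.4 FPKM with vehicle. All 18 treated libraries were above the vehicle mean, and the highest vehicle library overlapped the lowest treated ones. The rises were 0.57 ± 0.14 in the combination (adjusted p = 0.00276), 0.64 ± 0.14 with DEHP (adjusted p = 0.00165) and 0.61 ± 0.14 with ethanol (adjusted p = 0.00292), folds of 1.49, 1.56 and 1.53. All 3 calls held at every alternative setting.

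The 3 treated groups were not shown to differ from each other in Por. The combination differed from DEHP by -0.07 ± 0.14 (95% interval -0.37 to 0.22) and from ethanol by -0.04 ± 0.14 (95% interval -0.34 to 0.26). DEHP differed from ethanol by 0.03 ± 0.14 (95% interval -0.26 to 0.33). The interaction term of Por was -0.68 ± 0.20 (adjusted p = 0.0407). This call was lost in 14 of the 24 fits that leave out 1 library and at 7 further settings, while the value stayed between -0.77 and -0.58 with single libraries left out. Without the 3 libraries with muscle or pancreas transcripts it was -0.65, with an adjusted p of 0.108.

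Alas1 varied more between libraries of a group than any other gene here, with a coefficient of variation of 26.3% in the combination, 35.5% with DEHP, 52.2% with ethanol and 39.4% with vehicle. It had 73.1, 105.6 and 161.1 FPKM in the combination, 54.8, 83.1 and 135.4 FPKM with DEHP, 39.0, 76.9 and 160.9 FPKM with ethanol, and 49.7, 87.9 and 145.8 FPKM with vehicle (lowest, median, highest). All groups overlapped, and no comparison was called. The intervals are wide: 0.19 in the combination against vehicle (95% interval -0.41 to 0.80), -0.18 with DEHP (-0.79 to 0.43) and -0.14 with ethanol (-0.75 to 0.47). Alas2, the erythroid enzyme for the same step, averaged 28.2 ± 9.62 FPKM in the combination, 38.8 ± 7.37 with DEHP, 60.6 ± 8.32 with ethanol and 50.6 ± 6.30 with vehicle (SD, n = 6 each), and fell in the combination against vehicle by 0.84 ± 0.17 (adjusted p = 0.000408), while the globin genes measured beside it were not called.

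Cyp3a11, the PXR marker and the most abundant Cyp3a gene, was not called in any comparison. Its lowest, median and highest values were 2124, 2456 and 2687 FPKM in the combination, 1854, 2192 and 2629 FPKM with DEHP, 1739, 2222 and 2559 FPKM with ethanol, and 1405, 2061 and 2404 FPKM with vehicle. The groups overlapped, and 2 vehicle libraries, replicates 1 and 2, lay below all others in the series. Against vehicle it differed by 0.30 ± 0.12 in the combination (adjusted p = 0.056, 95% interval 0.05 to 0.56), by 0.19 ± 0.12 with DEHP (adjusted p = 0.263) and by 0.25 ± 0.12 with ethanol (adjusted p = 0.129). The first of these was called by DESeq2 (adjusted p = 0.045), by limma on log2(FPKM + 1) (adjusted p = 0.0372) and in 2 of the 24 fits that leave out 1 library. Without the 3 libraries with muscle or pancreas transcripts, of which vehicle replicate 1 is one, it was 0.20 with an adjusted p of 0.208.

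Cyp3a13, a gene with no close copy among those measured, was higher in both DEHP-treated groups. It had 56.3, 70.8 and 93.8 FPKM in the combination, 70.1, 75.3 and 83.8 FPKM with DEHP, 39.3, 44.1 and 52.3 FPKM with ethanol, and 43.1, 54.8 and 60.4 FPKM with vehicle (lowest, median, highest). All 6 DEHP libraries were above all 6 vehicle libraries, and all 12 libraries with DEHP in the dose were above all 6 ethanol libraries. The rise was 0.44 ± 0.10 in the combination against vehicle (adjusted p = 0.00178), 0.50 ± 0.10 with DEHP against vehicle (adjusted p = 0.000964), 0.62 ± 0.10 in the combination against ethanol (adjusted p = 6.22e-05) and 0.68 ± 0.10 with DEHP against ethanol (adjusted p = 2.42e-05). These 4 calls held at every alternative setting. Ethanol against vehicle differed by -0.18 ± 0.10 (95% interval -0.40 to 0.04, adjusted p = 0.194), and the combination differed from DEHP by -0.06 ± 0.10 (95% interval -0.27 to 0.16).

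Cyp3a59 rose in the combination, and Cyp3a25, its near copy, was not called in any comparison. Cyp3a59 had 21.8, 28.0 and 31.9 FPKM in the combination, 14.0, 24.6 and 30.8 FPKM with DEHP, 13.4, 18.2 and 26.1 FPKM with ethanol, and 11.7, 18.3 and 19.7 FPKM with vehicle (lowest, median, highest). Every combination library was above every vehicle library, with a rise of 0.65 ± 0.15 (adjusted p = 0.00155, 1.57-fold), and that call held at every alternative setting. With DEHP alone the rise of 0.44 ± 0.15 against vehicle (adjusted p = 0.0361) was lost at 8 alternative settings, among them limma on log2(FPKM + 1) (adjusted p = 0.0501) and the fit without the 3 libraries with muscle or pancreas transcripts (0.29, adjusted p = 0.198). It was also lost in 5 of the 24 fits that leave out 1 library. The rise of the combination over ethanol, 0.45 ± 0.15 (adjusted p = 0.0274), was lost in 6 of those 24 fits. It was also lost in edgeR with no filter (adjusted p = 0.0542) and with the gene length trend removed (adjusted p = 0.0849). Ethanol against vehicle was not called (0.20 ± 0.15, 95% interval -0.11 to 0.52).

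Cyp3a25 had 206.3, 225.3 and 263.2 FPKM in the combination, 152.8, 225.4 and 286.9 FPKM with DEHP, 199.0, 217.3 and 259.6 FPKM with ethanol, and 168.4, 255.8 and 261.6 FPKM with vehicle. Its log2 difference was -0.03 in the combination against vehicle (95% interval -0.28 to 0.22), -0.07 with DEHP against vehicle (95% interval -0.31 to 0.18) and 0.02 with ethanol against vehicle (95% interval -0.22 to 0.27).

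**Figure D2:**
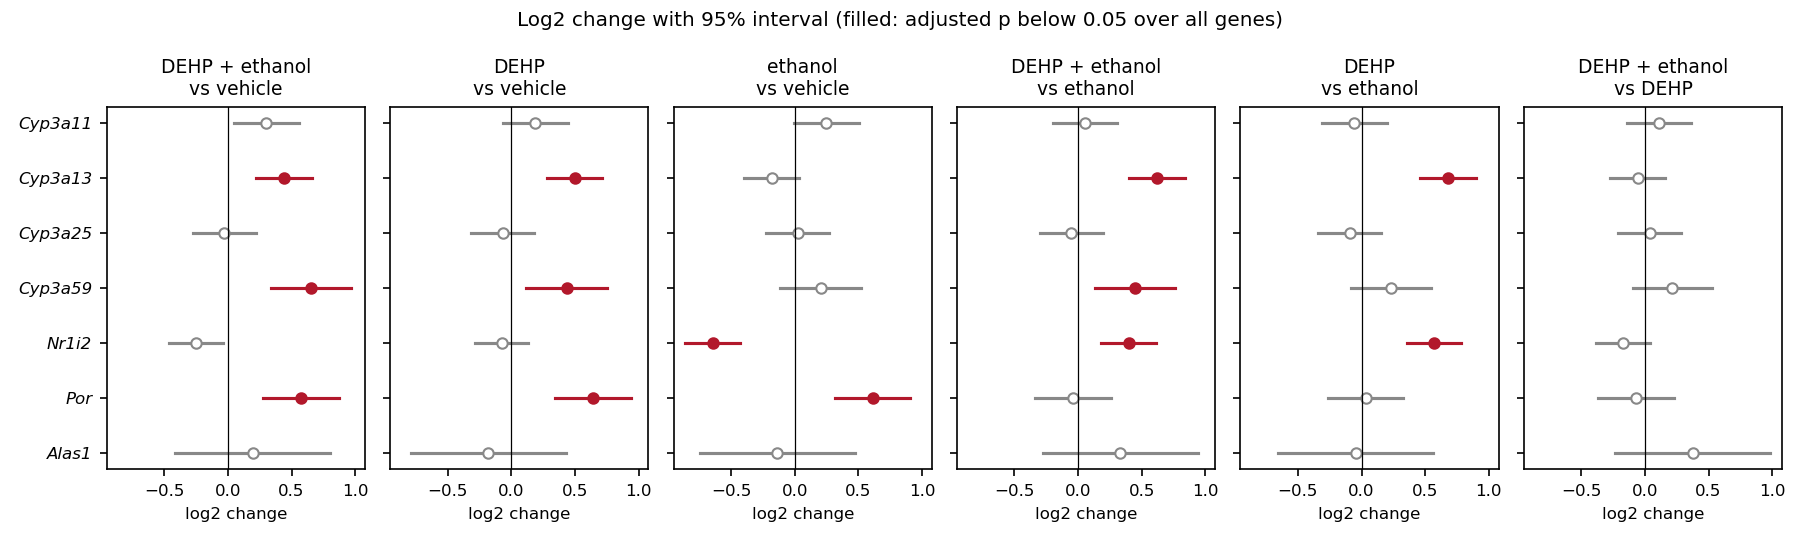
Log2 change of each gene in the 6 comparisons between groups, with its 95% interval; filled points passed an adjusted p of 0.05 over all genes tested. Cyp3a13 is right of 0 in each comparison of a group with DEHP against one without it, Nr1i2 is left of 0 for ethanol against vehicle, and the panel for the combination against DEHP holds no filled point.

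Ratios within a library do not depend on how libraries are scaled to each other, so each Cyp3a gene was also set against Cyp3a25. This measure was chosen after the levels had been seen. The Cyp3a59 to Cyp3a25 ratio was 0.106 to 0.136 in the combination, 0.0892 to 0.131 with DEHP, 0.0673 to 0.101 with ethanol and 0.0676 to 0.0883 with vehicle. Both DEHP-treated groups lay wholly above vehicle, and the combination lay wholly above ethanol. In exact two-sided permutation tests over libraries, adjusted over 18 tests (3 ratios in 6 comparisons), the ratio was 1.60-fold higher in the combination than with vehicle and 1.42-fold higher with DEHP than with vehicle (p = 0.00216 for each, the smallest that 6 libraries against 6 can give, and adjusted p = 0.00649). DEHP against ethanol gave 1.28-fold (same exact permutation test, adjusted p = 0.0662). How the reads shared by these near copies were split enters this ratio, and its part was not tested. The expected counts of both genes were whole numbers in most libraries. They were fractional in others, such as ethanol replicate 2 (3881.88 for Cyp3a25 and 383.12 for Cyp3a59).

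The Cyp3a11 to Cyp3a25 ratio was 1.26-fold higher in the combination than with vehicle, with no overlap (exact permutation test, adjusted p = 0.00649). It was 1.22-fold higher with DEHP than with vehicle (exact permutation test, adjusted p = 0.0536; it passed in 5 of the 24 runs that leave out 1 library, with adjusted p-values down to 0.0292) and 1.17-fold higher with ethanol than with vehicle (adjusted p = 0.0334), a call lost without any 1 of 7 libraries, 4 of ethanol and 3 of vehicle, with adjusted p-values up to 0.0668. The Cyp3a13 to Cyp3a25 ratio was higher than with ethanol in the combination (1.58-fold) and with DEHP (1.75-fold), both with no overlap (exact permutation test, adjusted p = 0.00649). Against vehicle it was, by the same exact permutation test, 1.35-fold in the combination (adjusted p = 0.12) and 1.49-fold with DEHP (adjusted p = 0.0662); the DEHP difference passed without vehicle replicate 1 (adjusted p = 0.0223). Summed over all Cyp3a rows, those of Cyp3a41a, Cyp3a44 and Cyp3a57 included, the level is mostly that of Cyp3a11 and says little of the near copies. By edgeR this sum differed from vehicle by 0.28 in the combination (adjusted p = 0.0617), 0.18 with DEHP (adjusted p = 0.263) and 0.21 with ethanol (adjusted p = 0.17).

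**Figure D3:**
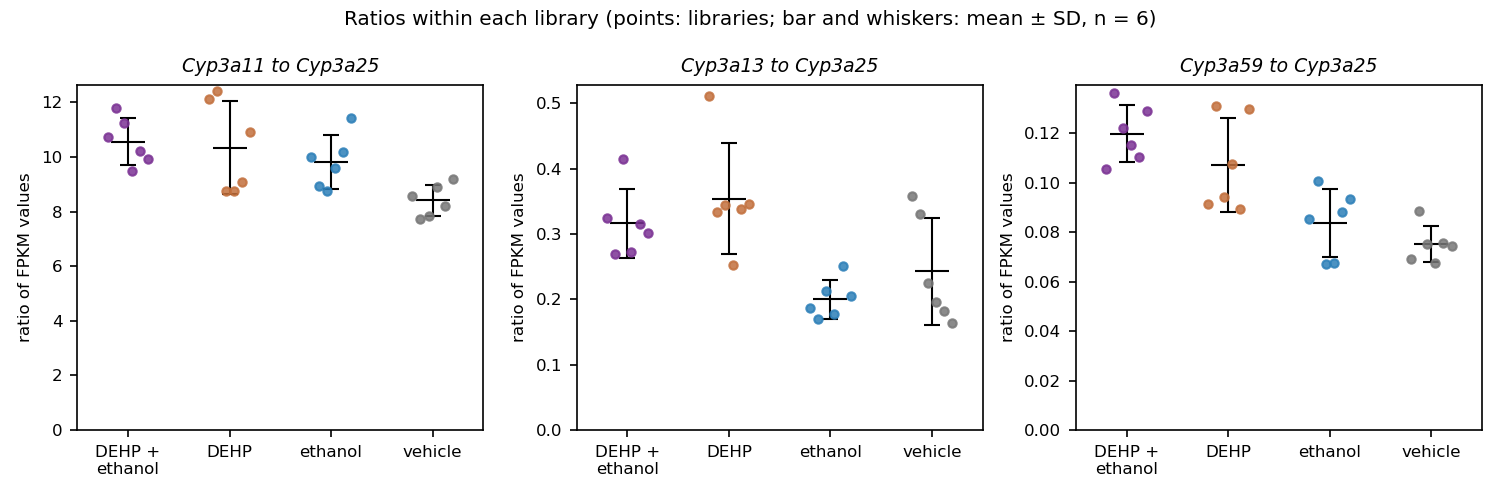
FPKM of Cyp3a11, Cyp3a13 and Cyp3a59 divided by that of Cyp3a25 in the same library (points), with the mean and SD of each group (n = 6). The 6 combination libraries lie above the 6 vehicle libraries in the Cyp3a11 and Cyp3a59 panels, and above the 6 ethanol libraries in the Cyp3a13 and Cyp3a59 panels.

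The counts over the 7 genes are to be read against the share of all 10697 genes called. In the combination against vehicle 3 of 7 rose (Cyp3a13, Cyp3a59 and Por), where 36.8% of all genes were called and 19.3% rose. The same 3 rose with DEHP against vehicle, where 26% were called and 14.4% rose. With ethanol against vehicle 1 rose (Por) and 1 fell (Nr1i2), where 28.8% were called, 14.2% higher and 14.5% lower. In the combination against ethanol 3 of 7 rose (Cyp3a13, Cyp3a59 and Nr1i2), where 27.8% were called and 15.1% rose. With DEHP against ethanol 2 of 7 rose (Cyp3a13 and Nr1i2), where 25.7% were called and 13.7% rose. An interaction was called for 2 of 7, 1 positive (3.32% of all genes) and 1 negative (3.09%), with 6.41% called in all. With 7 genes, no count here is a result about the set as a whole.

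Groups without overlap, in the direction of the change, were found for Cyp3a59 in the combination against vehicle (10.7% of all genes), Cyp3a13 with DEHP against vehicle (7.24%) and Nr1i2 with ethanol against vehicle (6.76%). Cyp3a13 and Nr1i2 had groups without overlap in the combination against ethanol (11.3%) and with DEHP against ethanol (8.62%). The comparisons share control libraries and are not independent of each other.

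Between the combination and DEHP alone none of the 7 genes was called by edgeR, none had an unadjusted p below 0.05, and DESeq2 called none. Over all genes edgeR called 13 (0.122%, 5 higher and 8 lower), 0.664% had groups without overlap, 1159 had an unadjusted p below 0.05, and DESeq2 called 44. The intervals for the 7 genes still allow differences, the widest for Alas1 (0.38, 95% interval -0.23 to 0.98) and the narrowest for Nr1i2 (-0.17, 95% interval -0.38 to 0.04) and Cyp3a13.

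The lists that follow are read against all tested genes, of which 19.3% rose and 17.4% fell in the combination against vehicle, 14.4% rose and 11.6% fell with DEHP, and 14.2% rose and 14.5% fell with ethanol. The median log2 change over all genes was -0.01, -0.02 and -0.01 in these comparisons.

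Genes outside the Cyp3a family that PXR or its relative CAR can switch on were often higher where DEHP was given. Of 36 tested, 14 rose (38.9%) and 3 fell in the combination against vehicle, with a median log2 change of 0.26. With DEHP against vehicle 17 rose (47.2%) and 2 fell (median 0.21). With ethanol against vehicle 2 rose and 3 fell (median -0.01), shares below those over all genes in both directions. Abcc4, an efflux transporter, rose to 3.63 ± 0.96 FPKM in the combination and 3.56 ± 1.33 with DEHP, against 0.503 ± 0.27 with vehicle (SD, n = 6 each). Cyp2a4, a steroid hydroxylase with near copies, rose to 50.5 ± 24.6 FPKM in the combination and 19.0 ± 9.42 with DEHP, against 0.288 ± 0.23 with vehicle, and Cyp2b9, whose reads may be shared with Cyp2b10, had log2 changes of 7.50 ± 0.76 and 6.98 ± 0.76 against vehicle. With ethanol, Insig2, a membrane protein that holds back cholesterol synthesis, fell to 77.6 ± 10.3 FPKM against 129.8 ± 17.8 with vehicle (-0.67 ± 0.11, adjusted p = 0.000115), and Ces2a, a carboxylesterase, rose by 0.47 ± 0.08 (adjusted p = 0.000183). Without the 3 libraries with muscle or pancreas transcripts, 9 of the 36 were called with ethanol in place of 5, as also without ethanol replicate 4 or vehicle replicate 1 alone.

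Genes that work with PXR (its partners, other liver factors and coregulators) were mostly not called, and fell more often than they rose where they were. Of 23 tested, 1 rose and 8 fell (34.8%) in the combination against vehicle (median -0.20), a count called of 5 in place of 9 with the gene length trend removed. With DEHP none rose and 4 fell (17.4%, median -0.13), a share called below that over all genes. With ethanol 2 rose and 9 fell (39.1%, median -0.10). Hnf4a, a master regulator of hepatocyte genes, fell to 126.9 ± 19.7 FPKM in the combination and 140.5 ± 11.4 with DEHP, against 179.8 ± 10.5 with vehicle (adjusted p = 0.00012 and 0.00381). Cebpb, an acute-phase factor, fell in all 3 treated groups, by 0.96 ± 0.20, 1.09 ± 0.20 and 0.94 ± 0.20. Cebpa, its relative, rose with ethanol to 296.9 ± 18.2 FPKM against 153.7 ± 19.2 with vehicle (adjusted p = 1.28e-07), and its interaction term was -1.004 ± 0.14 (adjusted p = 0.000131). Ppargc1a, a coactivator of fasting genes, fell with ethanol to 1.07 ± 0.22 FPKM against 2.29 ± 0.37 with vehicle. Rxra, the DNA-binding partner of PXR, was picked out after its values were seen: it rose with ethanol by 0.33 ± 0.09 (adjusted p = 0.00686), in the opposite direction to Nr1i2, and was not called with DEHP (0.01) or in the combination (-0.02).

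Genes of heme synthesis, transport and breakdown other than Alas1 mostly rose where they were called. Of 22 tested, 11 rose (50%) and 2 fell in the combination against vehicle (median 0.24), and 11 rose (50%) and none fell with DEHP (median 0.17). With ethanol 5 rose (22.7%) and 1 fell (median 0.11), in all a share near that over all genes; the count called was 10 in place of 6 without ethanol replicate 4. Slc48a1, a heme transporter, rose to 40.6 ± 5.80 FPKM in the combination and 37.4 ± 4.71 with DEHP, against 17.7 ± 1.498 with vehicle (adjusted p = 4.9e-09 and 5.72e-08). Blvrb, biliverdin reductase B, rose to 273.5 ± 41.2 and 221.7 ± 30.9 FPKM against 136.9 ± 27.9, and Pgrmc2, a heme chaperone, to 40.1 ± 7.73 and 34.5 ± 4.67 FPKM against 23.4 ± 1.89, in the same groups. Alad, the enzyme that follows ALAS1, rose by 0.44 ± 0.09 with DEHP (adjusted p = 0.00123) and by 0.34 ± 0.09 with ethanol (adjusted p = 0.00891) against vehicle. Clpx, a mitochondrial chaperone that acts on ALAS1 protein, fell with ethanol to 59.1 ± 11.5 FPKM against 140.8 ± 11.7 with vehicle (adjusted p = 1.53e-07). With the trend by gene length removed, the DEHP count was 7 in place of 11.

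Some other genes of microsomal and mitochondrial electron transfer rose in the DEHP-treated groups; the list also holds related reductases that serve other enzymes, such as Mtrr. Of 10 tested, 5 rose (50%) and none fell in the combination against vehicle (median 0.21), 4 rose (40%) and none fell with DEHP (median 0.04), and 1 rose and 1 fell with ethanol (median 0.06). Cyb5a, microsomal cytochrome b5, rose to 1477 ± 129 FPKM in the combination and 1430 ± 112 with DEHP, against 1096 ± 156 with vehicle (adjusted p = 0.00152 and 0.00713). Cyb5r3, cytochrome b5 reductase, rose with ethanol to 356.6 ± 19.3 FPKM against 283.1 ± 29.9 with vehicle (adjusted p = 0.000533), and Mtrr, a methionine synthase reductase, fell by 0.50 ± 0.16 (adjusted p = 0.0239). The counts for both DEHP-treated groups were 1 with the gene length trend removed and 2 without the 3 libraries with muscle or pancreas transcripts, and that for the combination was 3 without vehicle replicate 1 alone. The ethanol count was 1 without ethanol replicate 6 or vehicle replicate 2.

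Known regulators of Alas1 were often lower with ethanol, while Alas1 itself was not called. Of 13 tested, 1 rose and 6 fell (46.2%) in the combination (median -0.20), and 2 rose and 7 fell (53.8%) with ethanol (median -0.64). With DEHP 2 rose and 2 fell (15.4% each, median -0.20), in all a share near that over all genes. The list mixes activators with repressors such as Nr1d1, so these counts have no single meaning for Alas1. Clpx is also counted among the heme genes, and Ppargc1a among the genes that work with PXR. With a filter of 5 FPKM, which tests fewer genes, 4 were called in the combination in place of 7 and 5 with ethanol in place of 9; with the gene length trend removed, 3 were called in the combination. Foxo1, which carries fasting signals, fell to 5.94 ± 0.82 FPKM in the combination, 8.18 ± 1.04 with DEHP and 6.93 ± 0.70 with ethanol, against 11.8 ± 0.72 with vehicle. Npas2, a clock activator, fell with ethanol to 0.395 ± 0.26 FPKM against 3.71 ± 0.47 with vehicle, and Nr1d1, a clock repressor, rose to 34.6 ± 12.8 FPKM in the combination, 17.3 ± 7.81 with DEHP and 57.5 ± 7.74 with ethanol, against 6.03 ± 2.65 with vehicle. Levels of such clock genes vary through the day, and since the hour of collection is not stated in the labels, treatment and hour cannot be told apart. The same limit applies to the changes of Nr1i2 and Por, interactions included, as far as their levels follow the hour, which was not tested.

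The broad set of liver P450 genes moved both ways. Of 44 tested, 15 rose (34.1%) and 11 fell (25%) in the combination against vehicle, 15 rose (34.1%) and 10 fell (22.7%) with DEHP, and 14 rose (31.8%) and 2 fell with ethanol. The ethanol count called was 7 in place of 16 under TPM scaling, and 10 without ethanol replicate 1, ethanol replicate 3 or vehicle replicate 2. Among those that rose was Cyp4a31, of the Cyp4a family, which oxidises fatty acids at the far end and holds standard targets of PPARalpha. Cyp4a31 reached 167.6 ± 34.8 FPKM in the combination and 142.7 ± 29.2 with DEHP, against 3.19 ± 1.25 with vehicle, log2 changes of 5.71 ± 0.28 and 5.46 ± 0.28. With ethanol, Cyp2u1 rose by 1.07 ± 0.18 (adjusted p = 0.000122).

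**Figure D4:**
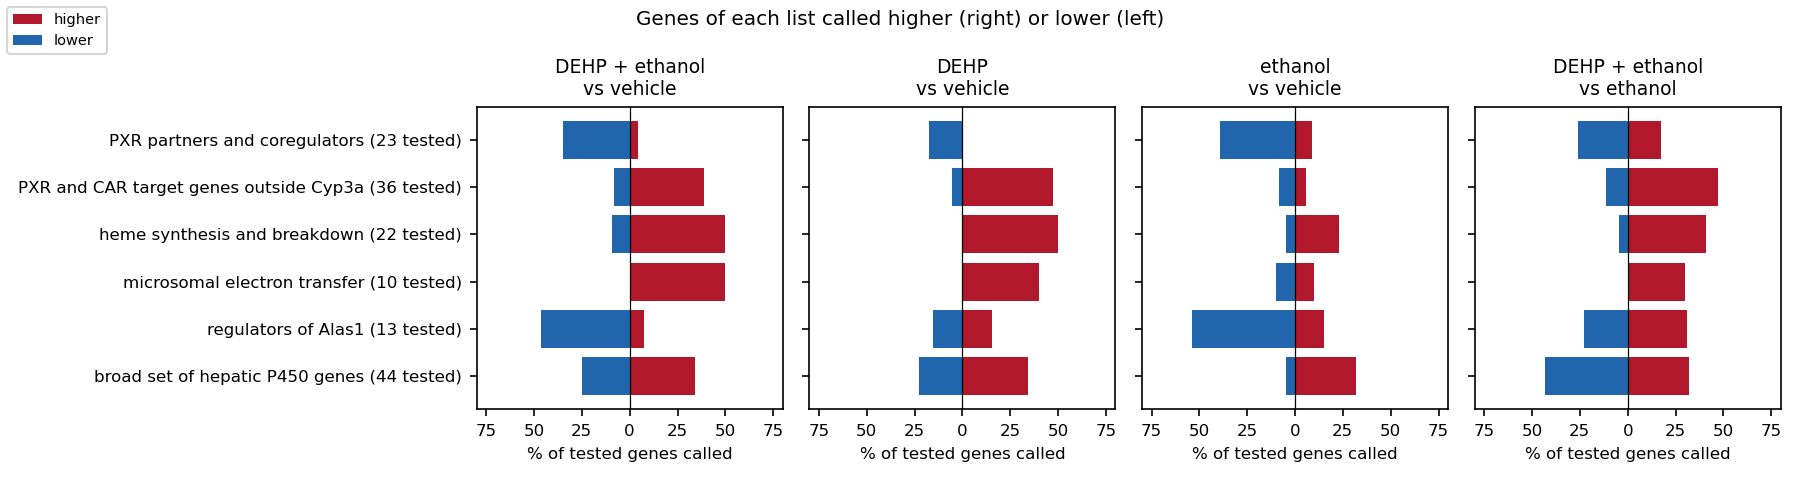
Share of the tested genes of each list that was called higher (right) or lower (left) in 4 comparisons; the number tested is given beside each list. The PXR and CAR target genes, heme genes and electron carriers have the longer bars to the right in the 3 panels with DEHP in the dose, and the PXR partners and the Alas1 regulators to the left in the panel for ethanol against vehicle.

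The genes whose profile over the 24 libraries lay nearest to each of the 7, by root mean square difference of centred log2 counts scaled for depth, were as follows. Nearest to Nr1i2 was Insig2, at 0.162, where the median gene was at 0.407. Nearest to Por was Fcgrt, the neonatal Fc receptor, at 0.184, then Abcb6, a porphyrin transporter, at 0.186. Nearest to Cyp3a11 was Dpys, an enzyme of pyrimidine breakdown, at 0.147, to Cyp3a13 Suclg2, a succinyl-CoA ligase subunit, at 0.183, to Cyp3a25 Acad8, an enzyme of valine breakdown, at 0.134, and to Cyp3a59 Ddah1, which breaks down methylated arginines, at 0.214. Farthest from its nearest gene was Alas1, with Tpd52 at 0.401, where the median gene was at 0.613. Such distances grow with how much a gene itself varied. The root mean square of the gene's own centred values ran from 0.204 for Cyp3a25 to 0.544 for Alas1. Distances of different genes are thus not directly comparable. The 7 genes themselves and genes with predicted names were passed over in this search.

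Within groups, Cyp3a11 was set against each of the other 6 genes over the 6 libraries of each group, 24 relations in all. None passed after adjustment. The strongest was with Cyp3a25 among vehicle libraries (Pearson r = 0.959, exact permutation p = 0.00833, adjusted p = 0.2; Spearman rho = 0.943, exact permutation p = 0.0167, adjusted p = 0.2), with r = 0.789 after leaving out the 2 libraries farthest from the median of Cyp3a11. With Nr1i2, Cyp3a11 had r = -0.22 in the combination, 0.762 with DEHP, -0.20 with ethanol and 0.492 with vehicle, and no exact permutation p below 0.0528 in these 4. These values were not stable. After leaving out the 2 farthest libraries in the same way, r was 0.650 in the combination, -0.027 with DEHP, -0.922 with ethanol and 0.449 with vehicle.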

How the data were processed

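Liver RNA from 24 mouse libraries (1 ug of total RNA each, an Illumina TruSeq preparation) was measured by RNA-seq. The deposited gene tables give expected counts, which need not be whole (94.5% to 95.3% were), and FPKM values scaled by the authors for transcript length and depth. The submitters' processing notes name Cuffdiff, mm10 and GRCm38 without a role or version; which aligner and counter were run is not given in the sources used here. A gene with no row was taken as 0.

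Expected counts were rounded and fitted with edgeR 4.0.16 (R 4.3.3; quasi-likelihood F test, TMM factors) over all 24 libraries and 4 groups, with 20 residual degrees of freedom, for the 10697 genes at 1 FPKM or more in at least 6 libraries. P-values were adjusted by Benjamini-Hochberg over those genes and called below 0.05; the fit was tested on simulated data. Total expected counts per library differed little, from 7324793 to 8016662. Levels are FPKM, changes are log2 with SE and a 95% interval. The interaction is (combination minus DEHP) minus (ethanol minus vehicle). Ratios within a library were compared by exact permutation tests (scipy 1.17.1). Alternatives were DESeq2 1.42.0, limma 3.58.1 on log2(FPKM + 1), log2(FPKM + 0.1) and log2(TPM + 1), other scaling factors and filters, 2-group fits, a replicate block, removal of the gene length trend, summed Cyp3a rows and leaving out libraries. Upstream windows are from RefSeq (GRCm38.p6) and coding sequences from GENCODE M21.

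The members and gene lists were chosen with earlier results of these data known. For each list the text names up to 4 tested genes with the smallest adjusted p in a comparison, any member of a list with 8 or fewer tested, and up to 3 genes with the nearest profile for each of the 7 genes. No pair of libraries of a group held the same values: chi-square per gene between libraries of a group was 6.52 or more.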

Additional observations from a re-analysis of the deposited data

Results flagged for a closer look

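Nr1i2 had 1 ethanol library that stood apart from the other 5: replicate 5 was at 25.79 FPKM, and the gap to the next library, at 21.9 FPKM, was 0.709 of the range of the group. It was the only such case among 28 sets of 6 libraries (7 genes in 4 groups), where chance gives about 1 in 20. All 6 ethanol libraries, this one included, were below the lowest vehicle library at 26.5 FPKM.

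The change of Nr1i2 that went with ethanol was called different between groups with and without DEHP, with an interaction of 0.47 on the log2 scale (edgeR, adjusted p = 0.0486). The call was lost in 20 of the 24 fits that leave out 1 library and at 3 other settings. The difference was -0.17 between the combination and DEHP and -0.64 between ethanol and vehicle.

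The change of Por that went with ethanol was also called different, with an interaction of -0.68 (edgeR, adjusted p = 0.0407). This call was lost in 14 of the 24 fits that leave out 1 library and at 7 other settings. The difference was -0.07 between the combination and DEHP and 0.61 between ethanol and vehicle. Both interactions were close to the threshold, and neither held at every setting.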

How the results depend on the processing

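Of 15 calls on the 7 genes, 11 held at every setting, each library left out included; the other 4 were Cyp3a59 with DEHP against vehicle, Cyp3a59 in the combination against ethanol, and the interactions of Nr1i2 and Por. In the combination against vehicle DESeq2 called 5 of the 7 genes in place of 3. Of the interactions, 1 was called in place of 2 with RLE factors, without scaling factors, with limma on log2(FPKM + 1), log2(FPKM + 0.1) or log2(TPM + 1), with a replicate block, with the gene length trend removed and without the 3 libraries holding muscle or pancreas transcripts (an alternative chosen after seeing the data, as were all ratios); 0 were called with no filter, and 0 to 2 when single libraries were left out. Replicate numbers did not pair the libraries: of 36 same-numbered pairs, 7 had deviations correlated above 0.1 (range -0.20 to 0.21), and 3 of 24 libraries correlated best with their own number. With the block, the interaction of Por had an adjusted p of 0.0612 and Cyp3a11 in the combination against vehicle one of 0.049; no other call on the 7 genes changed.

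Scaling moved the balance of calls over all genes. With ethanol against vehicle 1524 genes rose and 1555 fell, but 930 and 2061 without scaling factors, and 481 and 2764 on the TPM scale, where the median gene was at -0.15. On that scale Cyp3a13 with ethanol against vehicle was called (-0.34, adjusted p = 0.0289). With DEHP against ethanol 1469 rose and 1281 fell, but 2102 and 823 without factors and 2985 and 538 on the TPM scale (median gene at 0.17). In the combination against ethanol 1620 rose and 1356 fell, but 2198 and 915 without factors and 2563 and 695 on the TPM scale (median gene at 0.12). Removing the gene length trend moved the balance the other way. Then 1957 rose and 778 fell with ethanol against vehicle (median gene at 0.071). With DEHP against ethanol 921 rose and 2111 fell, and in the combination against ethanol 1065 rose and 2039 fell.

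Every result that turned its direction was one not called in the first place, and the cause was not tested. Without scaling factors, Cyp3a25 was at -0.051 with ethanol against vehicle, 0.028 in the combination against ethanol and 0.00040 with DEHP against ethanol, Por was at 0.041 in the combination against ethanol, and Cyp3a11 was at 0.031 and Alas1 at 0.049 with DEHP against ethanol. With limma on FPKM, both pseudocounts put Cyp3a25 at -0.017 with ethanol against vehicle, 0.0091 and 0.0092 in the combination against vehicle and 0.026 in the combination against ethanol, Por at 0.036 in the combination against ethanol, and Cyp3a11 at 0.028 and Alas1 at 0.12 with DEHP against ethanol. On the TPM scale, Cyp3a25 was at -0.12 with ethanol against vehicle, 0.080 in the combination against ethanol and 0.057 with DEHP against ethanol, Por was at 0.091 in the combination against ethanol, and Cyp3a11 was at 0.12 and Alas1 at 0.21 with DEHP against ethanol. With a filter of 5 FPKM, Cyp3a25 was at -0.023 with ethanol against vehicle. With the length trend removed, Cyp3a11 was at -0.051 in the combination against ethanol, Por at -0.068 with DEHP against ethanol, and the interactions of Cyp3a25 and Cyp3a59 were at -0.028 and -0.029. Without the 3 libraries, Cyp3a25 was at -0.072 with ethanol against vehicle and -0.0072 in the combination against DEHP, and Alas1 at 0.052 with DEHP against vehicle and 0.053 with DEHP against ethanol.

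Leaving out single libraries gave ranges across 0 for these results. Alas1 ran from -0.22 to 0.26 with DEHP against ethanol and from -0.44 to 0.012 with ethanol against vehicle. Cyp3a11 ran from -0.0088 to 0.0997 in the combination against ethanol, its log2 ratio to Cyp3a25 from -0.0027 to 0.0987 in the combination against DEHP, and Cyp3a13 from -0.15 to 0.0018 in the combination against DEHP. Cyp3a25 ran from -0.16 to 0.017 with DEHP against vehicle, -0.047 to 0.0985 in the combination against DEHP, -0.13 to 0.011 in the combination against vehicle, -0.070 to 0.064 with ethanol against vehicle and -0.070 to 0.094 in its interaction. The interaction of Cyp3a59 ran from -0.099 to 0.11. Por ran from -0.069 to 0.12 with DEHP against ethanol, -0.14 to 0.029 in the combination against DEHP and -0.11 to 0.048 in the combination against ethanol. Depth limits Cyp3a59 and Nr1i2 more than the others, at 165 to 449 and 379 to 753 reads per library.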
